A study of Homo sapiens with 12 samples.

Results

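The cohesin genes examined here were the 10 genes SMC1A, SMC3, RAD21, STAG1, NIPBL, PDS5A, PDS5B, ESCO1, ESCO2 and CTCF, out of 20098 protein-coding genes on chromosomes 1 to 22 and X. They were taken from a given list of cohesin subunits and regulators, and every SMC1 or CTCF peak that overlapped the gene or lay within 20 kb of it (human build hg19) was assigned to the gene. This gave 80 SMC1 peaks and 137 CTCF peaks of the 267921 peaks in 12 lists, which merged into 29 SMC1 regions and 42 CTCF regions across the genotypes. The libraries were chromatin immunoprecipitation sequencing (ChIP-seq) of SMC1, CTCF or control IgG in HAP1, a near-haploid human cell line of leukaemic origin. The 4 genotypes were wild-type, ΔWAPL, in which a blasticidin cassette had been inserted into WAPL with CRISPR, ΔSCC4, in which a puromycin cassette had been inserted into SCC4, and a double mutant (ΔWAPL/ΔSCC4), derived from ΔWAPL cells by disrupting SCC4 as well. Sets of 4 values below follow this order of genotypes, and positions are distances from the gene start, negative upstream. The parental cells carry a mutant p53, which all groups share. Both single mutants were clonal lines, so a difference between genotypes cannot be told apart from a difference between clones. Each group held 1 library and no test between genotypes could be made. All intervals below are 95% intervals for counting error, which leave out variation between cultures and precipitations.

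Cohesin is a ring that holds DNA and forms chromatin loops. SMC1 and SMC3 are its ATPase arms, RAD21 closes the ring, and a STAG subunit binds RAD21. NIPBL (SCC2) loads the ring together with SCC4, the product of MAU2. WAPL opens it with the help of PDS5A or PDS5B, and the acetyltransferases ESCO1 and ESCO2 modify SMC3. CTCF is a zinc-finger protein that binds DNA and marks the ends of many loops. The question asked of these genes was where the complex and CTCF lay on the genes that encode them, and whether this changed with the loss of WAPL, of SCC4 or of both.

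The DNA letters under the CTCF peaks were read first, because most SMC1 peaks of these genes lay on a CTCF peak. A motif of 19 bp with the consensus NNNCCACNAGGGGGCGCNN was learned from 1000 strong wild-type CTCF peaks, searched on both strands, and counted as present within 50 bp of a summit when it passed a score that 5% of flanking windows reached. Of the 42 CTCF regions, 36 held a match, against 79.3% of the 19605 wild-type CTCF peaks of even-numbered chromosomes. The sites below are those at gene starts and a choice of distal ones, so that the start sites that carried SMC1 in every genotype can be compared with the rest. Each is printed 5′ to 3′ on the strand of the motif, with the 19 matched bases in capitals, and the position is that of the match.
STAG1 start, chr3:136471245-136471263, minus strand, 23.9 bits: caccgCGGCCAGCAGAGGGCGGTCcggac
ESCO1 start, chr18:19180983-19181001, minus strand, 23.5 bits: agcggCCGCCGCTAGGGGGCGCCGccact
PDS5B start, chr13:33160490-33160508, plus strand, 18.9 bits: ccgtcTGGTCGGCAGGGGGCGCTGcgcac
PDS5A start, chr4:39979626-39979644, minus strand, 7.10 bits: attggCGCCAACCGGGTGGCGGCGctgtc
CTCF start, chr16:67596742-67596760, minus strand, 9.88 bits: cagcaGGGACGGTAGAGGGAGACAaacac
NIPBL start, chr5:36876108-36876126, minus strand, 10.1 bits: gataaAGGCCTGTAGGCGACGCTGcgcga
CTCF, downstream of the gene at CARMIL2, chr16:67678753-67678771, minus strand, 17.4 bits: tgccgCGAACACCAGGGGACGCTGcctgc
CTCF, upstream of the gene, chr16:67581046-67581064, plus strand, 21.8 bits: gcttcTGCCCACCAGGGGGCAGCAgatcc
ESCO1, upstream of the gene at SNRPD1, chr18:19192174-19192192, plus strand, 15.97 bits: acctcCAGCCGCCAGGGGCCGCAGtcgcg
SMC1A, upstream of the gene, chrX:53463123-53463141, minus strand, 12.2 bits: cttacCTTCCAGCAGGGGGAGAACtacac
SMC3, downstream of the gene, chr10:112370221-112370239, plus strand, 13.6 bits: tcccaGAGCCACTAGAGGGGGCCCttgac
PDS5B, intronic site with the highest CTCF fold enrichment, chr13:33225061-33225079, minus strand, 16.8 bits: tccagCATCCACTAGGTGGTGCTGcaaat
NIPBL, distal intronic site, chr5:37006229-37006247, minus strand, 16.1 bits: tcattTCACCACTAGATGACACCCtactg
The start sites of STAG1 and ESCO1 scored highest of those printed. The ESCO1 and PDS5B starts carried the central AGGGGGCG, and the STAG1 start AGAGGGCG. The start sites of PDS5A, CTCF and NIPBL scored lowest. A match describes these letters and does not show that the protein touched them.

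Over the 10 genes together, 19, 25, 11 and 25 SMC1 peaks were found. The ratio to wild-type was 1.32 (0.696 to 2.53) in ΔWAPL and in the double mutant and 0.579 (0.249 to 1.28) in ΔSCC4, so the interval of each ratio held 1. The whole lists stood at 1.83, 0.689 and 1.43 times wild-type. The paper reports more SMC1 peaks in ΔWAPL and fewer in ΔSCC4 than the lists used here held, and the reason was not examined. At least 1 SMC1 peak was present at 9, 9, 8 and 10 of the genes, against 63%, 80.9%, 48.2% and 70.7% of all protein-coding genes, and a CTCF peak at all 10 in every genotype, against 83.9%, 83.9%, 81.3% and 85.3%. CTCF peaks of the genes were nearly constant at 35, 35, 33 and 34. No IgG peak lay at any of the genes in any genotype. Per 100 kb of gene and flank, the cohesin genes held 1.15, 1.51, 0.664 and 1.51 SMC1 peaks and all protein-coding genes 1.01, 1.94, 0.653 and 1.35.

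Of the 29 SMC1 regions, 10 were present in all 4 genotypes (background 28.1% of all SMC1 regions) and 7 in all but ΔSCC4 (14.2%). Of the 19 regions of wild-type cells, 9 had no peak in ΔSCC4 (39.7%), 2 had none in ΔWAPL (6.19%) and 0 had none in the double mutant (10%). A peak in ΔWAPL and none in wild-type was seen at 8 regions (43.6%). CTCF occupied 30 of its 42 regions in all 4 genotypes (64.2%).

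Every wild-type SMC1 peak of the cohesin genes was at a CTCF peak of the same genotype, that is 19 of 19 (83.2% to 100%). In ΔSCC4 the count was 11 of 11. In ΔWAPL it was 21 of 25 (84.0%, 65.3% to 93.6%), and in the double mutant 23 of 25 (92.0%, 75.03% to 97.8%). Over the whole lists the shares were 94.5%, 81.6%, 95.2% and 93.5%, and each lay within the interval of the cohesin genes. The 4 ΔWAPL peaks without CTCF lay at RAD21, NIPBL, CTCF and upstream of PDS5B. The 2 in the double mutant lay at STAG1 and PDS5B.

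**Figure D1:**
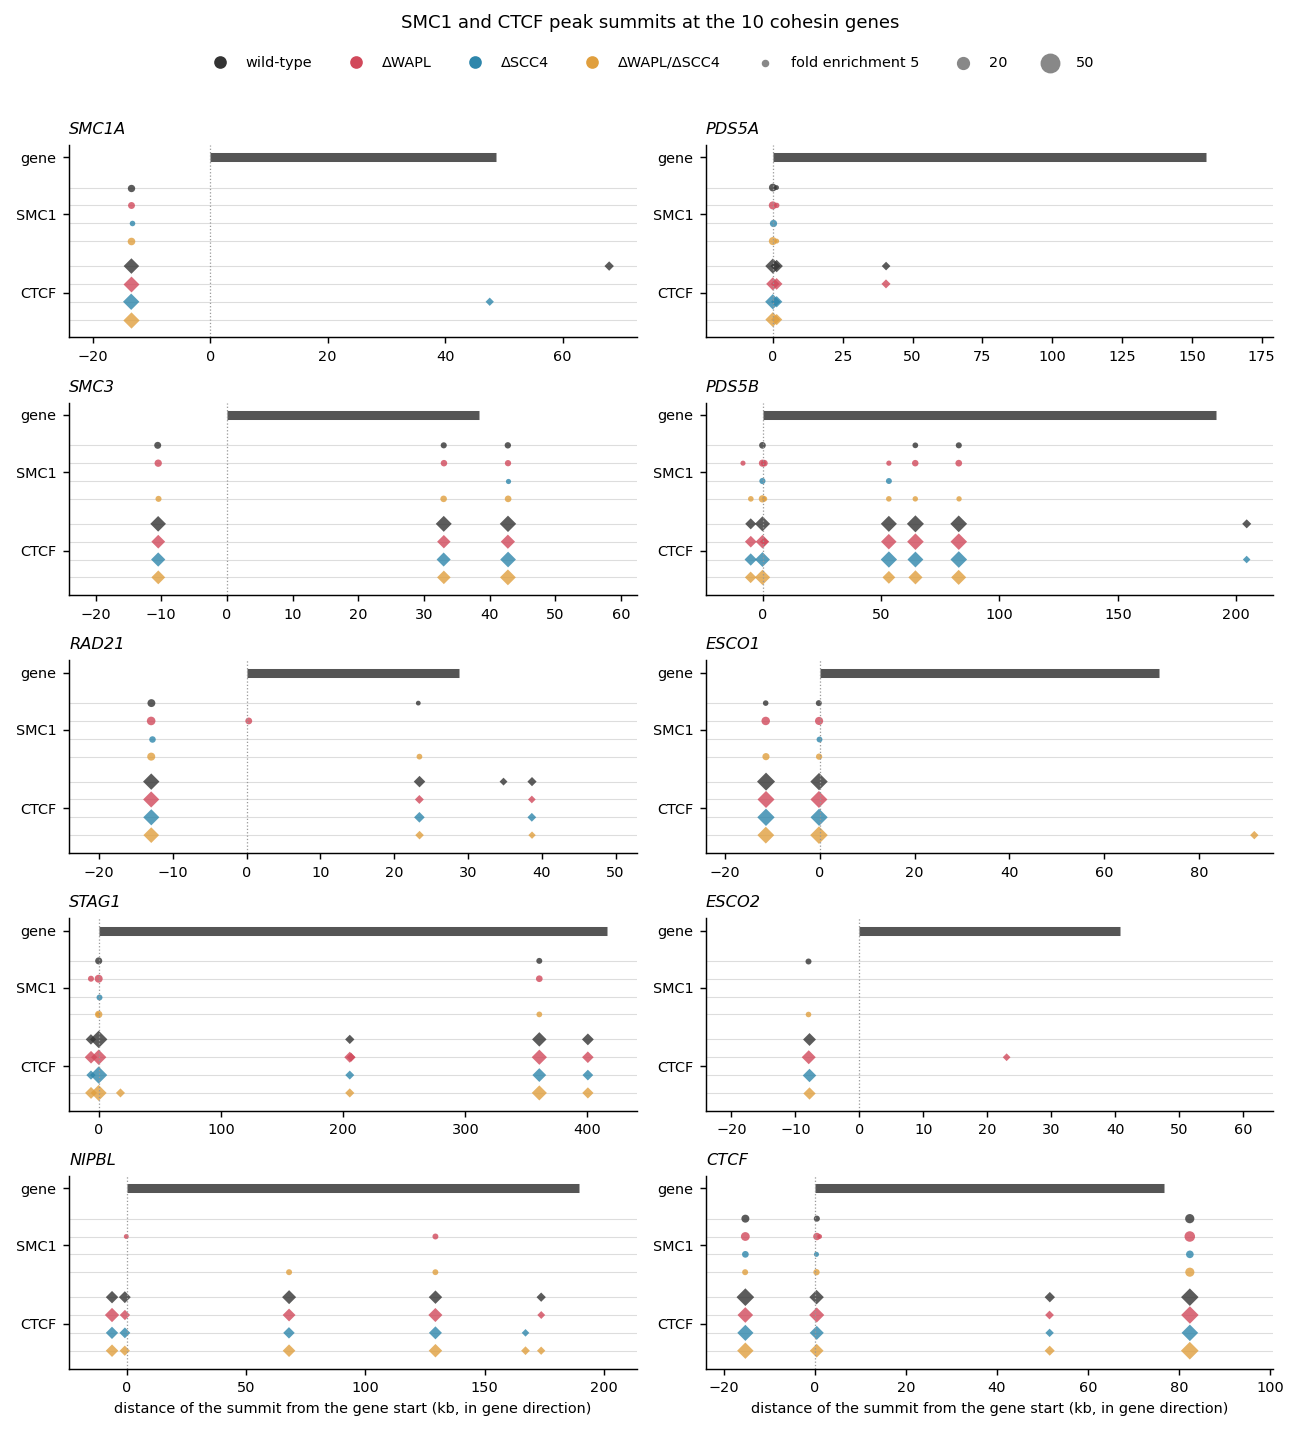
Positions of SMC1 (circles) and CTCF (diamonds) summits at the 10 genes, in kb from the gene start in gene direction, 1 line per genotype from wild-type at the top to ΔWAPL/ΔSCC4, with symbol area in proportion to the deposited fold enrichment (no unit). SMC1 sat at the start of STAG1, PDS5A, PDS5B, ESCO1 and CTCF in all 4 genotypes, at the start of RAD21 and NIPBL in ΔWAPL only, and at distal CTCF sites for SMC1A, SMC3 and ESCO2.

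SMC1 at the gene start was counted next. A summit lay within 1 kb of the start in 5, 7, 5 and 5 of the 10 genes. With only peaks at a −log10 q of at least 10 the counts were 3, 6, 1 and 5. With the full lists, the share among all protein-coding genes was 11.5%, 35.2%, 7.87% and 17.4%. No such share was computed at the stricter threshold. STAG1, PDS5A, PDS5B, ESCO1 and CTCF had such a peak in all 4 genotypes, as did 5.97% of all genes. RAD21 and NIPBL had one in ΔWAPL and not in wild-type, as did 24.3% of all genes. Those 5 genes and NIPBL also had a CTCF peak within 1 kb of the start in every genotype, against 14.9% of all genes. The 10 genes were chosen with earlier results of these data known. Of 15 other genes of the pathway, given for comparison below, 1, 7, 3 and 2 had a start peak. With only 10 genes, which were not drawn at random, the counts and shares describe the list and were not tested.

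To compare levels, the number of reads stacked at each summit was recovered from the deposited values and divided by the genome-wide average stack of its library, giving the normalised summit reads (no unit). Over the 10 SMC1 regions found in all 4 genotypes, the median ratio to wild-type was 1.94 for ΔWAPL, 0.558 for ΔSCC4 and 1.21 for the double mutant. Over all 10663 such regions it was 1.67, 0.814 and 1.30. With each library scaled to its own median over shared regions, the cohesin regions stood at 1.12, 0.711 and 0.913, so the direction for the double mutant turned with the scaling. The ratio reached 1.5 in 7 of the 10 regions in ΔWAPL (59.8% of all regions) and in 2 for the double mutant (31.4%), and was 1/1.5 or less in 8 for ΔSCC4 (25%). The interval of the ratio lay above 1 in 7 regions for ΔWAPL (49.3%) and below 1 in 3 for ΔSCC4 (9.09%). For the double mutant it lay above 1 in 2 (17.1%) and below 1 in 1 (0.835%).

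The ring subunits SMC1A, SMC3 and RAD21 had no SMC1 peak at the start in wild-type cells and carried cohesin at distal CTCF sites, where no ratio of ΔWAPL to wild-type had an interval that left out 1. SMC1A (ENSG00000072501, chrX:53401070-53449677, minus strand) encodes the subunit that the antibody targets. Its single SMC1 region (chrX:53462919-53463334) lay at -13447 bp, and the nearest start, 1807 bp away, was that of HSD17B10. The normalised summit reads there were 18.4, 14.4, 8.37 and 20.1, from 29, 23, 14 and 31 reads. The ΔSCC4 library was the lowest, at 0.455 of wild-type (0.222 to 0.889), while the ΔWAPL ratio of 0.785 (0.434 to 1.41) included 1. CTCF at the same site was at 66.4, 62.0, 72.7 and 76.3 normalised summit reads.

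SMC3 (ENSG00000108055, chr10:112327442-112365806, plus strand), the other ATPase arm, had 3 SMC1 regions, at -10469 bp, at 32988 bp in an exon of the gene and at 42808 bp beyond its end. All 3 were at CTCF peaks present in every genotype. The site at -10469 bp, the strongest for SMC1 by fold enrichment, had 13.3 normalised summit reads in wild-type, 16.3 in ΔWAPL and 10.4 in the double mutant, and no peak in ΔSCC4. The site at 42808 bp was the only 1 of the 3 with a peak in all genotypes, at 13.95, 13.8, 7.77 and 17.5. At neither site did the interval of any ratio to wild-type leave out 1. CTCF was strongest at 42789 bp, with 84.9, 51.1, 65.3 and 68.1 normalised summit reads. The interval of its ΔWAPL ratio, 0.602 (0.435 to 0.831), lay below 1.

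RAD21 (ENSG00000164754, chr8:117858173-117887015, minus strand), which closes the ring, had its strongest SMC1 region at -12919 bp (chr8:117899707-117900135). The values were 20.3, 21.97, 11.4 and 20.1 normalised summit reads. The ΔSCC4 library was again the lowest, at 0.560 of wild-type (0.300 to 1.02), an interval that held 1. CTCF at that site ranged from 59.8 to 73.8 over the genotypes. In ΔWAPL cells alone a further SMC1 peak appeared at 305 bp (chr8:117886527-117886905), in an untranslated exon of RAD21 that also overlaps an exon of the antisense RNA gene RAD21-AS1. It stood on 22 reads (13.8 to 33.3), a fold enrichment of 7.18, with no CTCF peak under it. The third region, at 23428 bp, had 10 reads in wild-type and 14 in the double mutant.

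STAG1 (ENSG00000118007, chr3:136055078-136471245, minus strand), the subunit that binds RAD21, differed from these. Its SMC1 region at the start (chr3:136470380-136472040, summit at -11 bp) had 24.7, 69.0, 11.95 and 38.3 normalised summit reads. These came from 39, 110, 20 and 59 reads. ΔWAPL was highest and ΔSCC4 lowest, and the ratios to wild-type were 2.79 (1.92 to 4.13), 0.483 (0.267 to 0.849) and 1.55 (1.01 to 2.38). CTCF at this site, on a motif of the gene's own strand, did not follow SMC1, with 96.8, 71.5, 75.1 and 81.99 normalised summit reads. The other SMC1 regions of STAG1 lay in an intron at 360573 bp, in all genotypes but ΔSCC4, and at -6311 bp in ΔWAPL only, both at CTCF peaks.

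The loader gene NIPBL (ENSG00000164190, chr5:36876871-37066515, plus strand) was the only cohesin gene with no SMC1 peak in either wild-type or ΔSCC4 cells, although it held 5 CTCF peaks in each. In ΔWAPL cells an SMC1 peak lay at -152 bp, 40 bp from the start of the divergent transcript NIPBL-DT, with 11 reads (5.49 to 19.7), a fold enrichment of 3.63 and no CTCF peak under it. The nearest CTCF region, at -760 bp, was present in all genotypes with 24.9, 15.3, 18.8 and 16.4 normalised summit reads. A second SMC1 peak lay on an intronic CTCF site at 129373 bp, with 13 reads each in ΔWAPL and the double mutant and fold enrichments of 5.40 and 5.31. The highest SMC1 fold enrichment of the gene, 5.51, was at 68060 bp in the double mutant only. The highest CTCF fold enrichment of the gene was 15.8, at -6120 bp in ΔWAPL, where the 3 others had 11.7 to 12.04. The site with the highest CTCF value differed by genotype, with 15.1 at 68069 bp in wild-type and, at 129354 bp, 13.01 in ΔSCC4 and 14.003 in the double mutant. All these SMC1 peaks stood on few reads, and the absence of a peak does not show that the signal was lower.

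PDS5A and PDS5B are the paralogues that act with WAPL in release. Their starts and that of STAG1 had the highest ΔWAPL 10-kb ratios of the list, given further on. The intervals of PDS5A, PDS5B and STAG1 all overlapped, so no order among them is shown. PDS5A (ENSG00000121892, chr4:39824483-39979576, minus strand) had SMC1 at -20 bp (chr4:39979109-39979845) with 26.6, 62.1, 16.7 and 35.7 normalised summit reads, from 42, 99, 28 and 55 reads. The ΔWAPL library was the highest, at 2.33 times wild-type (1.61 to 3.43), and the ratios of ΔSCC4, 0.628 (0.375 to 1.04), and the double mutant, 1.34 (0.880 to 2.05), included 1. CTCF at -49 bp had 122.7 normalised summit reads in wild-type and 72.3 in ΔWAPL, a ratio of 0.589 (0.449 to 0.770). It had 100.4 in ΔSCC4 and 101.7 in the double mutant. The ΔWAPL median over all shared CTCF regions was also below 1, at 0.814. By deposited fold enrichment this CTCF site stood at 17.6 in wild-type and 13.5 in ΔWAPL. A second SMC1 region at 1355 bp had 10.1, 27.6 and 12.3 normalised summit reads in wild-type, ΔWAPL and the double mutant and no peak in ΔSCC4.

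PDS5B (ENSG00000083642, chr13:33160589-33352157, plus strand) had 7 SMC1 regions, the most of the 10 genes, with 3, 6, 2 and 6 peaks. At the start (chr13:33160263-33161024, summit at -127 bp) the normalised summit reads were 16.5, 52.1, 11.4 and 30.5, from 26, 83, 19 and 47 reads. The ratios to wild-type were 3.16 (2.01 to 5.12) for ΔWAPL, 0.689 (0.360 to 1.29) for ΔSCC4 and 1.85 (1.12 to 3.11) for the double mutant. CTCF at -101 bp stood at 78.4, 55.5, 59.6 and 77.1. Just downstream, at 685 bp in an intron, SMC1 had 70 reads in ΔWAPL, where a weaker CTCF peak of 26 reads appeared as well, and 24 reads in the double mutant, where none did. The 3 intronic CTCF sites, at 53280, 64488 and 82776 bp, had CTCF in every genotype at fold enrichments of 12.7 to 22.3 and motifs on the strand opposite to the gene. SMC1 on them was weak, between 10 and 18 reads where a peak was called.

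**Figure D2:**
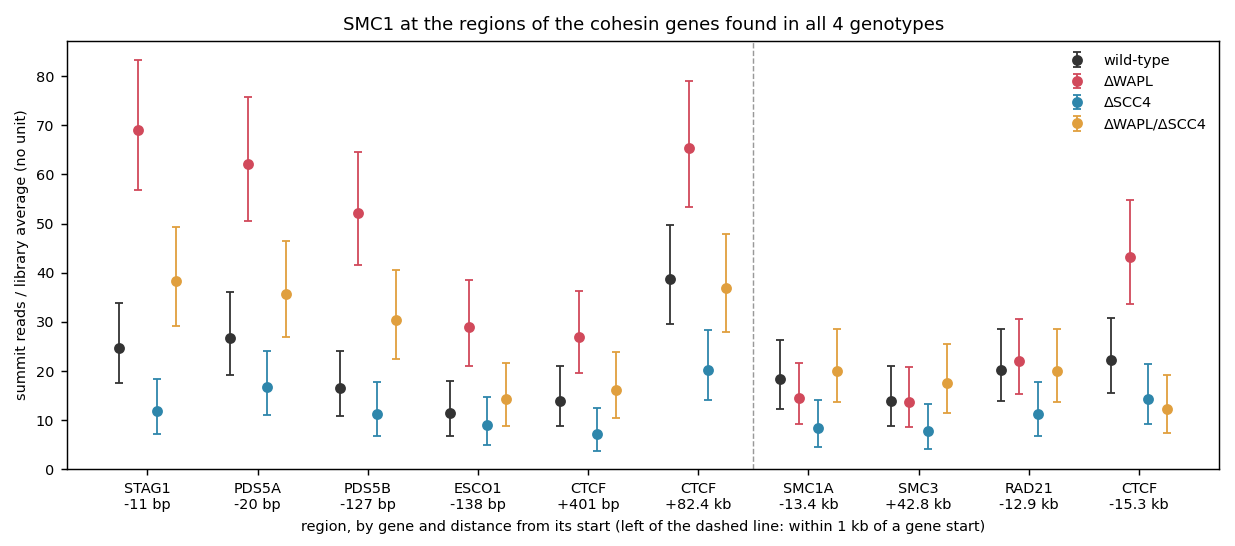
Normalised SMC1 summit reads (vertical axis, reads at the summit over the library average, no unit) at the 10 regions of the cohesin genes found in all 4 genotypes (horizontal axis), points coloured by genotype with exact 95% Poisson intervals. At SMC1A, SMC3 and RAD21 the wild-type and ΔWAPL points lie within each other's intervals. At all other regions shown the ΔWAPL points lie above the intervals of the 3 other genotypes. They are 69.0, 62.1 and 52.1 at the starts of STAG1, PDS5A and PDS5B.

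ESCO1 and ESCO2 acetylate the same subunit but had different surroundings. ESCO1 (ENSG00000141446, chr18:19109245-19180845, minus strand) had SMC1 at -138 bp with 11.4, 28.9, 8.97 and 14.3 normalised summit reads. The ΔWAPL ratio was 2.53 (1.44 to 4.63) and the other ratios, 0.785 and 1.25, had intervals that held 1. CTCF at -159 bp had 103.3, 70.8, 79.2 and 92.7 normalised summit reads. The other SMC1 region, at -11390 bp, lay 40 bp from the start of SNRPD1, a gene for a core splicing protein, and had 8.88, 27.6 and 14.3 in wild-type, ΔWAPL and the double mutant and no peak in ΔSCC4. Its ΔWAPL ratio was 3.11 (1.67 to 6.15) and it held the highest fold enrichment of the locus, 11.03 for SMC1 and 25.0 for CTCF. ESCO2 (ENSG00000171320, chr8:27629466-27670157, plus strand) had a single SMC1 region, at -7978 bp, with 14 reads in wild-type and 12 in the double mutant. CTCF at -7922 bp was present in every genotype at 39.7, 39.4, 40.0 and 31.2 normalised summit reads.

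The CTCF gene (ENSG00000102974, chr16:67596370-67673080, plus strand) held the SMC1 region with the highest fold enrichment of all 10 loci, but beyond the gene's end. At 82386 bp, 135 bp from the start of the neighbouring gene CARMIL2, the normalised summit reads were 38.7, 65.3, 20.3 and 36.96. Its fold enrichment was reached by 1.04% of wild-type and 0.515% of ΔWAPL SMC1 peaks. The ratios were 1.69 (1.22 to 2.35) for ΔWAPL and 0.525 (0.335 to 0.812) for ΔSCC4. At the start of CTCF, at 401 bp in an intron, the values were lower, 13.95, 26.99, 7.17 and 16.2, with ratios of 1.93 (1.13 to 3.40), 0.514 (0.232 to 1.08) and 1.16 (0.629 to 2.16). CTCF protein at its own start, at 364 bp, had, with 59.0, 55.5, 48.2 and 53.3 normalised summit reads, no ratio whose interval left out 1. The site at -15333 bp had 22.2, 43.3, 14.3 and 12.3 normalised SMC1 summit reads, with the double mutant at 0.555 of wild-type (0.300 to 0.997). In the 10 kb around that summit the double mutant was not the lowest, at 1.69 times the library average against 1.56 in ΔSCC4. Its 10-kb ratio to wild-type was 0.997 (0.772 to 1.29). A weak SMC1 peak at 1012 bp, 17 reads without CTCF, was called in ΔWAPL only.

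Start regions and others were then set side by side, a division made after the values were seen. In ΔWAPL all 6 regions within 1 kb of a gene start, those of the 5 cohesin genes and that of CARMIL2, had ratios of 1.69 to 3.16, and the interval lay above 1 in all 6 (71.1% of 1099 start regions in the whole series). Their median was 2.43, against 2.05 for all start regions. By the deposited fold enrichment, which divides by the local background, the order was the other way, 1.29 against 1.41. The 4 other regions had a median of 1.04, against 1.63 for all 9564 regions farther from a start, and 1 of the 4, that upstream of CTCF, had an interval above 1 (46.9%). For ΔSCC4 the medians were 0.577 at starts and 0.558 elsewhere.

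The reads around the start peaks were compared as well. The local background that the peak caller used equals the reads of the library itself in the 10 kb around the summit, the peak included. At PDS5B, PDS5A and CTCF the 10 kb also took in the further SMC1 region at 685, 1355 and 1012 bp. At the PDS5B start the 10-kb reads were 152, 464, 122 and 213, or 1.87, 6.06, 1.45 and 3.13 times the library average. The ΔWAPL ratio was 3.24 (2.69 to 3.92), and 21 of the 10663 shared SMC1 regions reached it. At the STAG1 start the 10-kb reads were 217, 493, 145 and 271, with a ΔWAPL ratio of 2.41 (2.05 to 2.84) reached by 3.04% of regions. At the PDS5A start they were 187, 435, 130 and 202, with a ratio of 2.47 (2.07 to 2.95) reached by 2.52%. The ratios at the ESCO1 and CTCF starts were lower, 1.43 (1.13 to 1.82) and 1.38 (1.12 to 1.72), values that 46.3% and 51.3% of regions reached. Among only the 1099 shared regions within 1 kb of a gene start, the shares that reached these ratios were larger. They were 0.728% for PDS5B, 7.55% for STAG1, 6.01% for PDS5A, 63.3% for ESCO1 and 68.1% for CTCF. At SMC1A and RAD21 the 10-kb ratios were 0.863 (0.664 to 1.12) and 0.876 (0.669 to 1.14). A ratio of 1.5 was reached in 4 of the 10 cohesin regions and in 40.2% of all.

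The 10-kb surroundings in the CTCF libraries differed from this. In those libraries the ΔWAPL ratio at the STAG1, PDS5A, PDS5B, ESCO1 and CTCF starts was 1.001, 0.767, 0.896, 0.703 and 0.893. None of the 30 shared CTCF regions of the cohesin genes reached 1.5, against 0.388% of all. The PDS5A start stood highest in CTCF, at 6.11 times the library average in wild-type cells.

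**Figure D3:**
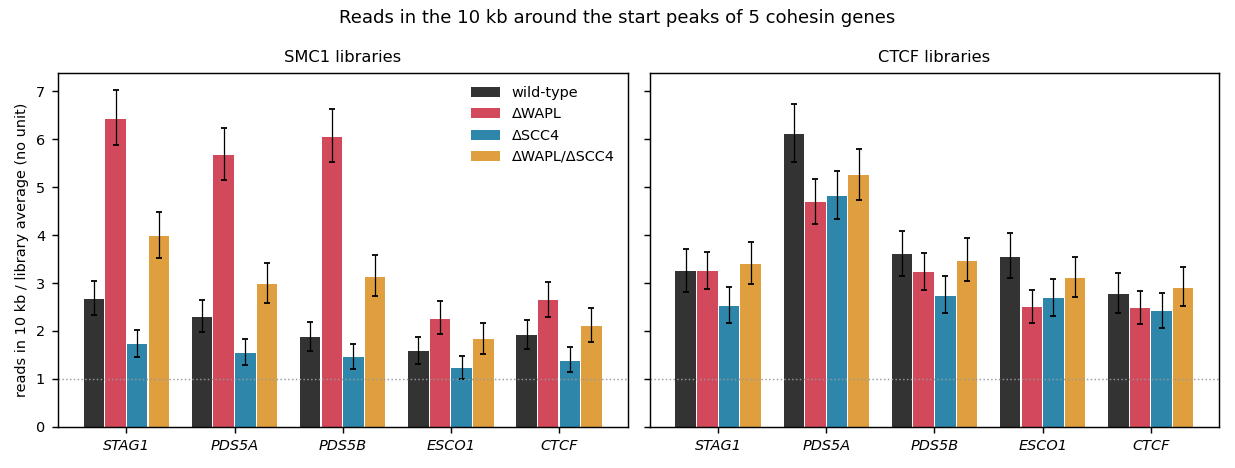
Reads in the 10 kb around the start peak of 5 cohesin genes over the library average (vertical axis, no unit, from 0), for the SMC1 libraries (left) and the CTCF libraries (right), bars by genotype with exact 95% Poisson intervals and a dotted line at 1. ΔWAPL is highest in all 5 SMC1 groups, from 2.26 at ESCO1 to 6.44 at STAG1, whereas in the CTCF groups it lies within the wild-type interval at STAG1, PDS5B and CTCF and below it at PDS5A (4.69) and ESCO1 (2.498).

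The start regions were also compared across backgrounds. Relative to ΔWAPL, the double mutant stood at 0.554 at STAG1, 0.574 at PDS5A, 0.585 at PDS5B, 0.494 at ESCO1 and 0.601 at CTCF. Relative to wild-type, ΔSCC4 stood at 0.483, 0.628, 0.689, 0.785 and 0.514. The interval of the ΔSCC4 ratio lay below 1 in 2 of the 6 start regions, those of STAG1 and CARMIL2, and held 1 at the other 4. The double mutant stood at 1.59 to 3.20 times ΔSCC4 at the 5 gene starts. These pairs share libraries and are given side by side only. A peak stays in a list only above the caller's threshold, so regions with a peak in all 4 genotypes leave out those that fell below it in ΔSCC4.

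**Figure D4:**
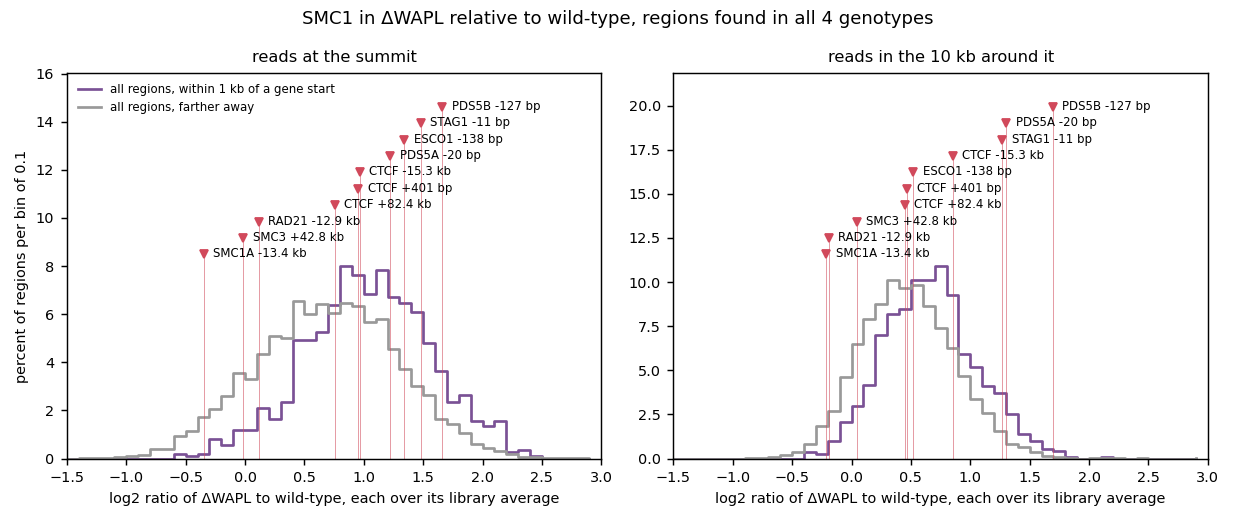
Distribution of the log2 ratio of ΔWAPL to wild-type (horizontal axis) over all SMC1 regions found in all 4 genotypes, as percent of regions per bin (vertical axis), for reads at the summit (left) and in the surrounding 10 kb (right), with triangles at the 10 regions of the cohesin genes, whose height only separates the labels. The STAG1, PDS5A and PDS5B starts lie in the upper tail of the 10-kb ratios (2.41, 2.47 and 3.24 before log2), and SMC1A and RAD21 in the lower part of both.

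Over the 30 CTCF regions found in all 4 genotypes the median ratio of normalised summit reads was 0.773 for ΔWAPL, 0.773 for ΔSCC4 and 0.825 for the double mutant, against 0.814, 0.800 and 0.911 over all 34574 such regions. The interval lay below 1 in 10 of the 30 for ΔWAPL (19.7% of all regions), 2 for ΔSCC4 (18%) and 4 for the double mutant (6.52%). With each library scaled to its own median the values were 0.918, 0.977 and 0.890.

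The motif was then set against SMC1. All 24 CTCF regions with a peak in every genotype that also carried SMC1 in some genotype held a match, with a median score of 16.03 bits. Of the 6 that carried no SMC1, 4 held a match and the median was 8.82 bits, and of the 7 seen in 1 genotype without SMC1, 4 did. The same shares were not computed over all CTCF regions, and the strength of the CTCF peaks was not taken into account. These counts therefore describe the sites and do not show a link between motif and SMC1. Of the 36 matches, 14 lay on the strand of the gene and 22 on the opposite strand, against 24 and 17 at the 15 comparison genes of the pathway. The start sites of STAG1, PDS5A, PDS5B and ESCO1 matched on the strand of the gene, and those of CTCF and NIPBL on the opposite one.

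The 15 other genes of the pathway, given for comparison, were STAG2, STAG3, SMC1B, RAD21L1, REC8, WAPL, MAU2, CDCA5, HDAC8, ESPL1, PTTG1, SGO1, SGO2, DDX11 and CTCFL. They held 17, 30, 15 and 24 SMC1 peaks, a ΔWAPL ratio of 1.76 (0.942 to 3.41) whose interval held 1. A start peak was present in 1, 7, 3 and 2 of them. SGO2, which protects centromeric cohesin, was the only 1 of the 15 with a start peak in all 4 genotypes. WAPL itself had no SMC1 peak in any genotype.

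Depth was similar across the lists. The genome-wide average was 6.79 to 8.41 reads per kb in the SMC1 libraries and 6.53 to 8.41 in the CTCF libraries, and the whole-number reads at the summit could be recovered for at least 99.98% of SMC1 and CTCF peaks. The SMC1 lists ran from 12779 to 33952 peaks, so a region without a peak may hold reads below the threshold of that list. Peak lists hold no expression values, so they show neither the loss of WAPL or SCC4 nor the RNA level of the cohesin genes.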

How the data were processed

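Reads were mapped to hg19 and peaks called with MACS2 2.1.1 in each library, per the labels and the methods of the study. Per peak, the authors deposited a fold enrichment, a ratio of summit reads plus 1 to local background plus 1. The −log10 p value and the −log10 q value of the summit were also deposited. From fold enrichment and −log10 p, the whole-number summit reads and the background that solve both were recovered. The methods name IgG as the control, but backgrounds above the floor were whole reads of the same library in 10 kb, within 0.02 read, for at least 99.98% of peaks of each list (at most 7.44% with another fragment length). The lowest background of a list served as the library average.

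Genes were taken from GENCODE version 44 on GRCh37, whose chromosomes hold every peak. Peaks of 1 antibody overlapping by at least 1 bp were merged into regions. Intervals were exact Poisson for reads, exact binomial for ratios and Wilson for shares, all at 95% and for counting error only. The genes and gene lists were chosen with earlier results of these data known. One further gene of the comparison list is not reported here. Every gene was described by the SMC1 and CTCF region nearest its start, if within 1 kb, and by the strongest of each by fold enrichment. The motif was learned on odd-numbered chromosomes, so sites there may have helped to build it. Python 3.11.15, numpy 2.4.6, pandas 2.3.3, scipy 1.17.1 and matplotlib 3.10.9 were used, and the steps were tested on simulated data. Alternatives covered peak thresholds, flanks, equal list lengths, IgG removal, merging, overlap rules, start distances, scalings and motif thresholds.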

Additional observations from a re-analysis of the deposited data

Results flagged for a closer look

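At some SMC1 regions, the ratios for loss of the same protein lay on opposite sides of 1 in the 2 backgrounds. Each value rests on 1 library a group, and the difference between backgrounds was not tested. No counting interval was computed for the ratios in the deletion backgrounds, so an opposite direction is not shown at any of these regions. At the SMC1A region at -13447 bp, normalised summit reads changed 0.785-fold with the loss of WAPL in wild-type and 2.40-fold in ΔSCC4 cells, and 0.455-fold with the loss of SCC4 in wild-type and 1.39-fold in ΔWAPL cells. In the wild-type background the counting interval of the first held 1 (0.434 to 1.41) and that of the SCC4 value did not (0.222 to 0.889). At the SMC3 region at 42808 bp, the changes were 0.990-fold and 2.25-fold with the loss of WAPL, and 0.557-fold and 1.27-fold with the loss of SCC4. Both wild-type background intervals held 1 (0.523 to 1.87 and 0.258 to 1.16), so no direction is shown there. At the CTCF region at -15333 bp, the loss of WAPL went with 1.95-fold in wild-type and 0.859-fold in ΔSCC4 cells.

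The median of CTCF summit reads over the 30 shared CTCF regions went the same way. Loss of WAPL gave 0.773 in wild-type and 1.05 in ΔSCC4 cells, and loss of SCC4 gave 0.773 in wild-type and 1.06 in ΔWAPL cells. This difference was not tested either, and all 4 ratios rest on the same 4 libraries. It was not particular to these genes. Over all 34574 shared CTCF regions the medians relative to wild-type were 0.814, 0.800 and 0.911 for ΔWAPL, ΔSCC4 and the double mutant, which was again the highest. The pattern depends on the scaling: relative to wild-type the medians for ΔWAPL, ΔSCC4 and the double mutant were 0.918, 0.977 and 0.890 with each library scaled to its own median, and 0.937, 0.924 and 0.903 by fold enrichment, so that the double mutant was the lowest under both.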

How the results depend on the processing

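Of 144 recomputed values, 123 stayed within the limits of the reported one (counting error, or 1.5 times for counts), 20 moved beyond them and 1 turned direction; the cause was not tested unless named. Dividing by the library's own median over shared regions gave SMC1 medians of 1.12 for ΔWAPL, 0.711 for ΔSCC4 and 0.913 for the double mutant, the last turning from above to below 1, and CTCF medians of 0.918, 0.977 and 0.890. The deposited fold enrichment, which divides by a local background that contains the peak, gave 1.20 for SMC1 in ΔWAPL and 0.695 in ΔSCC4, and for CTCF 0.937, 0.924 and 0.903. The gene body alone left 5 SMC1 regions, with a ΔWAPL median of 2.53. The share of ΔWAPL SMC1 peaks at CTCF was 95.2% at −log10 q of at least 5, 94.1% at 10, 95% at a fold enrichment of at least 5 and 100% with lists of equal length. That of the double mutant was 100% at −log10 q of at least 10, at a fold enrichment of 5 and with equal lengths. At −log10 q of at least 10, start peaks remained in 3 genes in wild-type and 1 in ΔSCC4 cells. With equal list lengths, an alternative added after seeing the data, the 4 genotypes had 5, 5, 5 and 4 such genes. No paired analysis was possible because each group held 1 library and the labels carry no replicate numbers, and no library could be left out for the same reason.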

Other observations

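SMC1 summits at CTCF peaks of the cohesin genes were measured from the centre of the motif match, in the direction of the printed letters. Only summits inside the CTCF region were used, which limits the range. This left out the wild-type peak of the RAD21 region at 23428 bp. Over 73 peaks the median offset was 6 bp, with 41 summits toward the 3′ side, 31 toward the 5′ side and a range of -129 to 96 bp. The medians by genotype were 7 bp in wild-type (n = 18), 4 bp in ΔWAPL (n = 21), -8 bp in ΔSCC4 (n = 11) and 7 bp in ΔWAPL/ΔSCC4 cells (n = 23). The peaks share genes and sites, so this is a description.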
